A study of Mus musculus with 2 samples.

Results

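The 60 genes described here encode chromatin remodellers, histone deacetylases, histone demethylases and enzymes that write or remove DNA methylation. They were chosen by symbol among the 23154 genes of the count tables, as every symbol that begins with *Smarc*, *Dnmt* or *Kdm* followed by a digit from 1 to 8, *Chd1* to *Chd9*, every numbered *Hdac*, and *Tet1* to *Tet3*. The rule itself uses no measured value. Of the 60, 14 were SMARC, 9 CHD, 11 HDAC, 18 KDM, 5 DNMT and 3 TET genes. They include the pseudogene *Smarca5-ps* and the antisense transcript *Dnmt3aos*. The cells were PK44 cells of the E10.0 yolk sac of mice on a C57BL/6 background, without any transgene, deletion or treatment named in the labels. PK44 names a sort gate for the hemogenic endothelium, the embryonic endothelium from which blood cells form, and stands for cells negative for CD41, CD43 and CD45 and positive for CD31, CD201, Kit and CD44. They were profiled by a modified STRT-seq, a well-based method in which each transcript is counted by a unique molecular identifier (UMI). Replicate 1 held 43 cells and replicate 2 held 44 cells of this single condition, and the files do not say which embryo a cell came from.

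The libraries held 8932527 and 12706360 counts, with medians of 141577 and 238899 counts per cell and a range of 13218 to 956593. No cell barcode was shared between the libraries. Endothelial genes, 8 of 8, had counts in every group of cells formed below, and so had all hematopoietic genes looked at. At least 3 of 6 erythroid genes were without a count in each group. Counts in summed cells do not show which cells held them. In replicate 1, 2 cells, and in replicate 2, 1 cell, held at least 100 counts of each of *Col1a1*, *Col1a2*, *Col3a1* and *Lum*, genes of mesenchymal cells, and results were recomputed without them. Levels are given in CPM, the count of a gene scaled to the same total in every library, with the SD over the 2 libraries. Cells of a library are not replicates, so groups of cells were compared over sums of counts per library.

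Chromatin remodellers use ATP to slide, evict or exchange nucleosomes. SWI/SNF (BAF) complexes carry *Smarca4* (BRG1) or *Smarca2* (BRM) as their motor, ISWI complexes carry *Smarca5* or *Smarca1*, and the NuRD complex joins a CHD motor (*Chd3*, *Chd4* or *Chd5*) to the deacetylases *Hdac1* and *Hdac2*. *Dnmt1* copies CpG methylation onto newly replicated DNA, *Dnmt3a* and *Dnmt3b* set it on unmethylated DNA, and the TET enzymes oxidize methylcytosine. *Runx1* is the transcription factor required for blood formation from hemogenic endothelium, and *Mki67* is transcribed in dividing cells.

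The promoters of these genes, which are themselves places where CpG methylation could act, differed in CpG number with the level of the gene. RefSeq promoter windows (GRCm38.p6) matched 46 of the 60 members by symbol, and CpG dinucleotides were counted in the 250 bases before the start, taking for every gene of several listed starts the one with the most. The median was 24 CpG in the 12 promoters of members at or above 100 CPM, 20 in the 23 of members from 10 to under 100 CPM and 7 in the 11 of members under 10 CPM. Over all genes with a promoter in the table, it was 17 for the 10034 with a count and 3 for the 7183 without. At least 10 CpG were held by 12 of 12, 21 of 23 and 5 of 11 of these member promoters, and by 76.3% and 21.1% of the promoters of genes with and without a count. The following windows show the most abundant member (*Smarca4*), the most abundant CHD gene (*Chd4*), a de novo methyltransferase (*Dnmt3b*) and a member with counts in 1 cell (*Hdac9*), each 5′ to 3′ with CG in capitals:
Smarca4, 25 CpG, chr9:21615919-21616168, plus strand: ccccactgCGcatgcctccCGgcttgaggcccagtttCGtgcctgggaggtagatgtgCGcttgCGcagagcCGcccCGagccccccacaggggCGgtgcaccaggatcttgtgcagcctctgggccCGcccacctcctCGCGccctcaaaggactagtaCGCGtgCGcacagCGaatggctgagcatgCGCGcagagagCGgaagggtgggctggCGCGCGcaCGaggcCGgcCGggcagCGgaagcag
Chd4, 12 CpG, chr6:125095731-125095980, plus strand: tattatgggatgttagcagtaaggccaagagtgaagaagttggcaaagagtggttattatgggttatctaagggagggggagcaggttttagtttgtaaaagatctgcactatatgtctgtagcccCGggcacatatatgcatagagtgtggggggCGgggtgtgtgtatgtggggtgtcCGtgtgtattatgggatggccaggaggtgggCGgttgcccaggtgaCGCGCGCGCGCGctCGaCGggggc
Dnmt3b, 21 CpG, chr2:153649199-153649448, plus strand: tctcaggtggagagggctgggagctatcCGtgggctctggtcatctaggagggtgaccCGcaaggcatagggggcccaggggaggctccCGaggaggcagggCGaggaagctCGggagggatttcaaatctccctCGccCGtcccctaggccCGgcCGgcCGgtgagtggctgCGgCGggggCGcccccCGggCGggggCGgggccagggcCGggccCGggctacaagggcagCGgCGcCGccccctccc
Hdac9, 2 CpG, chr12:34528890-34529139, minus strand: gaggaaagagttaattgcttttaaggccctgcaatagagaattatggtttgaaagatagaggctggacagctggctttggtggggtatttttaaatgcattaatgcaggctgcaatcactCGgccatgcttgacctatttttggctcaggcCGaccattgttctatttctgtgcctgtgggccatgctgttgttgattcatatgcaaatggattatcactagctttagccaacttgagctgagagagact
The capitals were dense along the windows of *Smarca4* and *Dnmt3b*, fewer in *Chd4* and sparse in *Hdac9*. For *Chd4* and *Hdac9* 2 starts were listed, and the other window of *Chd4*, which held 23 CpG and entered the counts above, lies over annotated exons and is not shown. DNA methylation was not measured, and a CpG count says nothing of its state.

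Counts were found for 58 of the 60 members, for 54 of them in both libraries. *Dnmt3l*, a cofactor of the de novo methyltransferases known from germ cells, and *Dnmt3aos* were at 0 of 87 cells, which allows a share of up to 3.45% of cells with a count (exact 95% interval 0% to 4.15%). The median level of the 58 and the 2 at 0 together was 49.7 CPM, beside 22.9 CPM over the 13206 genes with a count, of which the members are a part. The members held 0.535% and 0.466% of all counts of the libraries. At or above 100 CPM were 18 members, 30 lay from 10 to under 100 CPM and 12 under 10 CPM. In cells thinned to 20000 counts, the median cell held counts of 16 members in replicate 1 and of 21.5 in replicate 2. The order of the levels was alike in the libraries (Spearman's rho of 0.90 across 58 genes, which share the depth of their library and are not independent replicates). Of 50 members above 10 CPM in a library, 13 differed by more than 2 times between libraries, as did 31.6% of all such genes.

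*Smarca4* and *Chd4* had the highest means, and the subunits of SWI/SNF spread over a wide range of levels. *Smarca4* (chr9:21616169-21704230, plus strand, GENCODE M21 on GRCm38) was at 455 and 412 CPM in replicates 1 and 2 and had counts in 82 of 87 cells. *Smarcc1*, which encodes the scaffold BAF155, was at 351 and 245 CPM and *Smarce1* (BAF57) at 237 and 184 CPM. *Smarcb1*, the core subunit SNF5, was at 103 and 125 CPM, and *Smarca2* at 130.3 and 87.9 CPM. The ISWI motor *Smarca5* (chr8:80698507-80739497, minus strand) was at 289 and 89.9 CPM, so that the libraries were further apart for it than for any other member at or above 100 CPM except *Hdac7*, and its processed pseudogene *Smarca5-ps*, whose reads may be shared with it, was at 11.8 and 1.26 CPM. *Smarca1* had counts in 4 of 87 cells and *Smarcd3*, the BAF60 subunit of heart and muscle, in 11 of 87 cells.

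*Chd4* (chr6:125095981-125130591, plus strand) was at 483 and 382 CPM, and its mean of 433 ± 71.4 CPM was not apart from that of *Smarca4* (433 ± 30.6 CPM, SD, n = 2 libraries) beyond the spread. The remaining CHD genes were lower. *Chd7*, mutated in CHARGE syndrome, was at 118 and 128 CPM, *Chd6* at 92.5 and 146 CPM, *Chd1* at 124 and 108 CPM and *Chd2* at 134 and 64.9 CPM. *Chd8* was at 70.3 and 78.1 CPM and *Chd9* at 91.1 and 34.9 CPM. *Chd3* was at 31.2 and 70.1 CPM, while *Chd5*, a NuRD motor of neurons and testis, had all of its 184 counts in 2 cells of replicate 1. Counts of *Chd2* are uncertain where its exons share 2628 bases with *1810026B05Rik* on the same strand.

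Among the deacetylases, the class I enzyme *Hdac1* (chr4:129516104-129542713, minus strand) stood first at 280.0 and 317 CPM, with counts in 78 of 87 cells. Its partner *Hdac2* was at 83.96 and 64.2 CPM and *Hdac3*, another class I enzyme, at 49.3 and 48.2 CPM. *Hdac7*, a class IIa enzyme known from the developing endothelium, had the next highest mean, at 47.4 and 154 CPM, over 2 times apart, with counts in 24 of 43 and 39 of 44 cells. The other class IIa members were lower, with *Hdac5* at 27.2 and 31.5 CPM, *Hdac4* at 4.70 and 19.7 CPM and *Hdac9* with 9 counts in 1 cell. *Hdac10* (25.4 and 22.04 CPM), *Hdac6* (23.3 and 21.3 CPM), the deacetylase of tubulin, and *Hdac8* (6.83 and 5.59 CPM) had counts in under 30% of cells. *Hdac11* had 49 counts, all in 2 cells of replicate 1.

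The histone demethylases were spread more evenly. *Kdm5a* (100.1 and 153 CPM), *Kdm2a* (112 and 106 CPM), *Kdm5b* (116 and 84.4 CPM), the X-linked *Kdm5c* (54.5 and 107 CPM) and *Kdm1a* (75.5 and 84.4 CPM), the LSD1 enzyme required for blood formation, had counts in more than 50% of cells each. The demethylases of the mark set by Polycomb, *Kdm6b* and the X-linked *Kdm6a*, were at 45.7 and 72.3 CPM and at 52.7 and 42.9 CPM. *Kdm3b*, *Kdm4b*, *Kdm2b*, *Kdm3a*, *Kdm7a* and *Kdm4c* had means from 23.03 to 43.9 CPM, and the Y-linked *Kdm5d* a mean of 12.6 ± 1.29 CPM. *Kdm1b*, *Kdm8*, *Kdm4a* and *Kdm4d* were under 10 CPM. *Kdm4d* had a single count. *Kdm1b* shares 505 exonic bases with *Dek* on the opposite strand, which held 15766 counts, and since the strand of counting is not given in the sources used here, its level is uncertain.

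All of the catalytic DNA methyltransferases were abundant. *Dnmt1* (chr9:20907209-20959888, minus strand) was at 301 and 272 CPM with counts in 77 of 87 cells, *Dnmt3a* (chr12:3806007-3914443, plus strand) at 301 and 180.0 CPM in 79 of 87 cells and *Dnmt3b* (chr2:153649450-153687730, plus strand) at 198 and 153 CPM in 65 of 87 cells. Their means of 286 ± 20.8 CPM, 240.3 ± 85.4 CPM and 175 ± 32.3 CPM (SD, n = 2) follow in this order, but neighbours overlap within their spread. The TET enzymes were lower. *Tet3* was at 51.4 and 28.8 CPM, *Tet2* at 45.004 and 14.4 CPM and *Tet1* at 16.01 and 22.6 CPM, and the 3 TET genes together summed to 112 and 65.8 CPM, against 800.0 and 604 CPM for the DNMT genes. Exon length differs between these genes. The counts were taken as UMI counts, in which a UMI marks a transcript rather than a stretch of it, and were not scaled by length. Values per kilobase of exon are given as an alternative scale only. Across the 58 members, the Spearman correlation of level and exon length was 0.22. Per kilobase of exon, *Hdac1* (86.6 CPM per kb) stood above *Smarca4* (66.9) and *Chd4* (53.9), and *Dnmt1* (38.8) and *Dnmt3b* (34.4) above *Dnmt3a* (14.4).

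**Figure D1:**
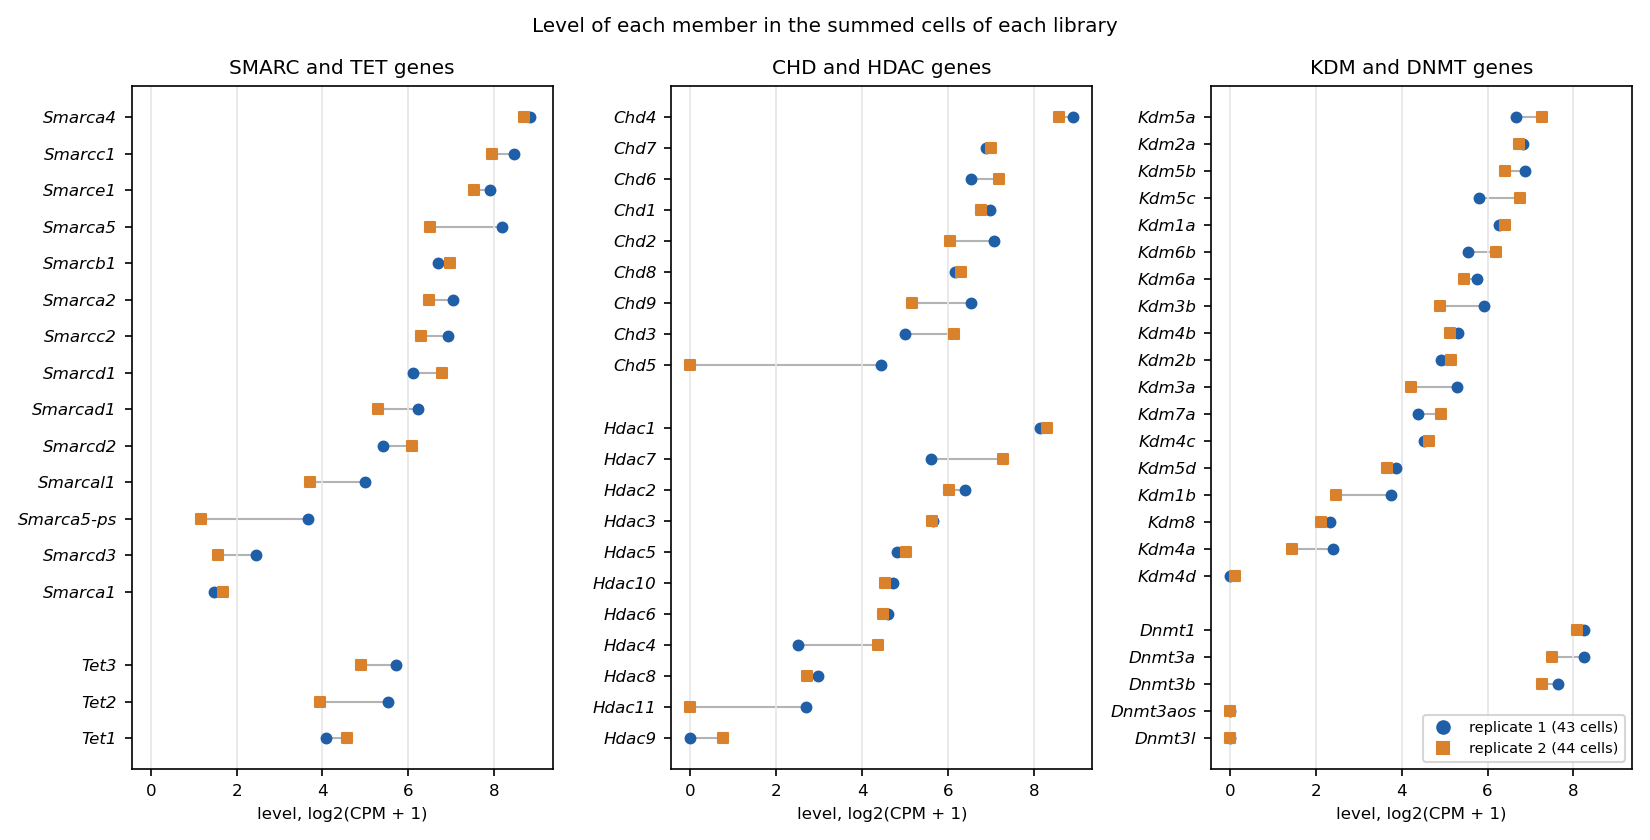
Level of the 60 members as log2(CPM + 1) of the summed cells of each library, with a grey line joining the libraries. *Smarca4* and *Chd4* lie furthest right, and *Dnmt3l* and *Dnmt3aos* lie at 0.

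Within most groups of paralogs, a single gene held the larger part of the counts in both libraries. *Smarca4* held 77.7% and 82.4% of the SWI/SNF motor counts in replicates 1 and 2, *Smarca5* 99.4% and 97.6% of the ISWI motor counts, *Chd4* 90.3% and 84.5% of the NuRD motor counts and *Smarcc1* 74.5% and 75.9% of the BAF155/170 counts. *Hdac1* held 76.9% and 83.2% of the *Hdac1* and *Hdac2* counts, *Hdac3* 87.8% and 89.6% of the *Hdac3* and *Hdac8* counts, *Kdm1a* 85.8% and 94.9% of the KDM1 counts and *Kdm2a* 79.2% and 75.5% of the KDM2 counts. These 8 majorities also stood per kilobase of exon, in thinned cells and as the mean of the shares within cells. Single cells held to the same side: among 86 cells thinned to 20000 counts, *Smarca4* exceeded *Smarca2* in 61 and fell below it in 12, *Chd4* exceeded *Chd3* in 72 and fell below it in 4, and *Hdac1* exceeded *Hdac2* in 62 and fell below it in 15. Both paralogs had counts in 29 cells for *Smarca4* and *Smarca2* and in 30 for *Hdac1* and *Hdac2*, so the minor paralog was not confined to cells without the major one.

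Other groups were shared or depended on the scale. *Dnmt3a* held 60.3% and 54.1% of the de novo methyltransferase counts, but 31.8% and 26.6% per kilobase of exon, where *Dnmt3b* was the larger. *Dnmt3a* exceeded *Dnmt3b* in 42 of 86 thinned cells and fell below it in 28, and 34 cells had counts of both. *Tet3* held 45.7% and 43.8% of the TET counts, with *Tet2* at 40.04% and 21.9% and *Tet1* at 14.2% and 34.3%. The order of *Tet1* and *Tet2* changed between libraries. *Smarcd1* held 59.7% and 61.1% of the BAF60 counts, whereas *Smarcd1* and *Smarcd2* each exceeded the other in 26 thinned cells, and the mean of the shares within cells was 48.3% for *Smarcd1*. *Hdac7* held 59.7% and 74.8% of the class IIa counts, and *Hdac10* and *Hdac6* were within 5 percentage points of each other. *Chd1* held 48.2% and 62.4% of the *Chd1* and *Chd2* counts and *Kdm6b* 46.4% and 62.8% of the KDM6 counts, each on different sides of 50% in the libraries. In the KDM5 group, *Kdm5b* was first in replicate 1 (40.7%) and *Kdm5a* in replicate 2 (43.01%), and per kilobase of exon *Kdm5c* had the highest mean share (40.7%). *Kdm3b* held 60.6% and 61.99% of the KDM3 counts, with a mean of 48.0% per kilobase, and *Kdm4b* held 59.6% and 56.6% of the KDM4 counts. In the CHD6 to CHD9 group no gene reached 40%, and *Chd7* held 31.7% and 33.1%.

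**Figure D2:**
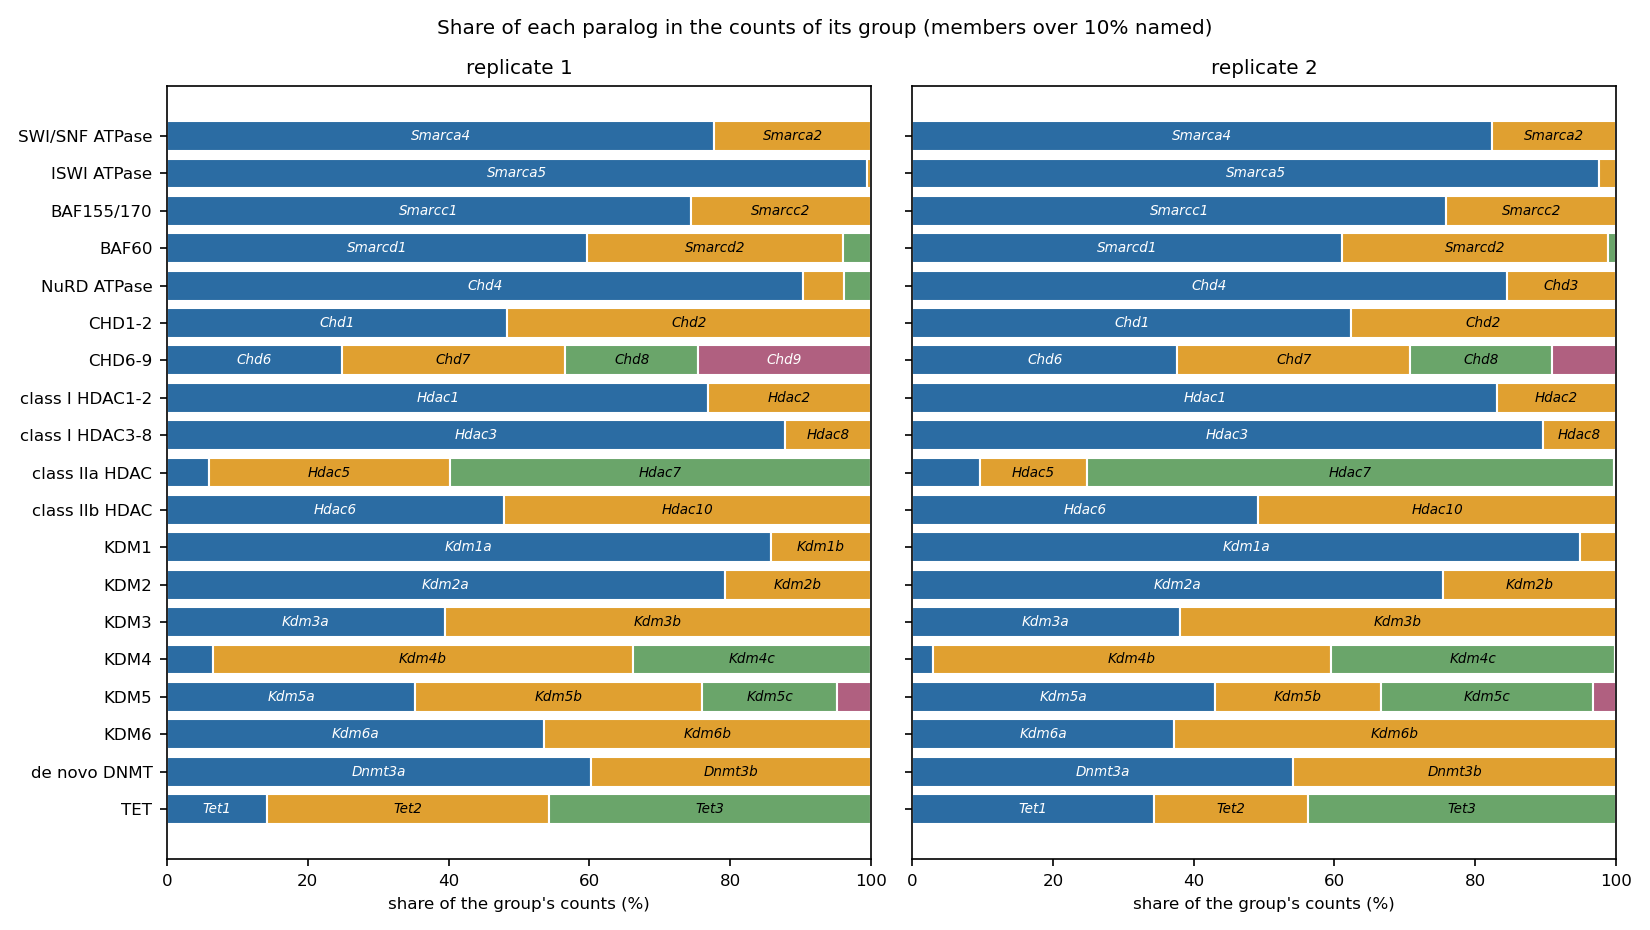
Share of each paralog in the counts of its group (%), replicate 1 left and replicate 2 right, with members over 10% named. *Smarca4*, *Smarca5*, *Chd4*, *Hdac1* and *Kdm1a* fill more than 75% of their bars in both libraries, whereas the CHD6 to CHD9, KDM5 and TET bars are divided.

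To ask whether the members differ between cells with much and little *Runx1*, the cells of each library were divided at the library's median *Runx1* level (52.2 CPM and 10.03 CPM), giving 21 and 22 high cells and 22 and 22 low cells. Of these, 11 and 9 cells lay within 2 times of the division. No member passed the test. Of 55 members with enough counts, 0 had an adjusted p below 0.05 (edgeR quasi-likelihood test with the library in the model, Benjamini-Hochberg adjustment over 10629 genes), where 1.56% of all genes passed, 40 higher and 126 lower in *Runx1*-high cells. At an unadjusted p below 0.05 were 2 members, beside 8.66% of all genes. By DESeq2, 0 members and 306 genes passed. The median log2 fold change of the 55 members was -0.13, beside 0.07 over all genes, and 22 were above 0.

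The 2 members were *Dnmt3b* and *Chd2*, named after their values were seen. *Dnmt3b* was at 224 and 212 CPM against 151 and 63.7 CPM in *Runx1*-high against *Runx1*-low cells of replicates 1 and 2. In single cells, its median was 217 and 113 CPM in high cells and 10.1 and 9.54 CPM in low cells, with counts in 19 of 21 and 18 of 22 high cells and 14 of 22 low cells in each library. The high sums lay above the low ones in both libraries, while single cells overlapped widely (log2 fold change 1.12 ± 0.46, SE, edgeR adjusted p = 0.317). Thinned to 20000 counts per cell it was 1.29, and without the cells with mesenchymal genes 1.00, while the libraries alone gave 0.54 and 1.73. *Dnmt3b* held 38.9% and 61.2% of the de novo methyltransferase counts in high cells and 42.2% and 20.5% in low cells, so its share went in opposite directions in the libraries. *Chd2*, a remodeller of active genes, was at 64.9 and 50.2 CPM against 258 and 86.8 CPM (log2 fold change -1.42 ± 0.53, edgeR adjusted p = 0.207). It was lower in the high sums of both libraries (-2.02 and -0.79), with cell medians of 10.6 and 0 CPM in high and 12.2 and 92.4 CPM in low cells.

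The most abundant members did not pass the test. *Smarca4* was at 498 and 462 CPM against 377 and 337 CPM, *Chd4* at 427 and 389.8 CPM against 585 and 371 CPM and *Hdac1* at 274 and 321 CPM against 291 and 310.2 CPM. *Dnmt1* was at 311 and 271 CPM against 283 and 272 CPM (log2 fold change 0.03 ± 0.37). Of these, *Smarca4* lay higher in the high cells of both libraries, and the others pointed in opposite directions. Opposite directions were also found for *Dnmt3a*, at 353 and 135 CPM against 206 and 248 CPM, for *Smarca2*, at 157 and 44.8 CPM against 81.3 and 152 CPM, and for *Smarca5*, at 280.4 and 100.2 CPM against 305 and 74.5 CPM. *Hdac2* was at 76.7 and 63.9 CPM against 97.1 and 64.7 CPM. *Smarcc1* was at 351 and 217 CPM against 352 and 287 CPM and *Smarcd1* at 72.6 and 71.2 CPM against 58.9 and 165 CPM. *Hdac3* was at 28.99 and 47.7 CPM against 86.04 and 48.8 CPM, *Hdac7* at 35.1 and 133 CPM against 69.7 and 185 CPM and *Hdac10* at 33.7 and 32.1 CPM against 10.4 and 7.05 CPM. *Hdac3* and *Hdac7* lay lower and *Hdac10* higher in the high cells of both libraries, none past the test. *Chd1* was at 134 and 105 CPM against 107 and 112 CPM and *Chd7* at 126 and 109 CPM against 103 and 157 CPM.

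Demethylases and TET enzymes were as scattered. *Kdm1a* was at 73.3 and 79.4 CPM against 79.4 and 91.7 CPM, *Kdm2a* at 124 and 103 CPM against 90.8 and 111 CPM and *Kdm5a* at 60.2 and 164 CPM against 172 and 138 CPM. *Kdm3b* was at 56.1 and 28.9 CPM against 64.3 and 28.8 CPM, *Kdm4b* at 23.4 and 15.5 CPM against 66.8 and 60.7 CPM and *Kdm6b* at 52.3 and 61.8 CPM against 33.7 and 87.98 CPM. Of these, *Kdm4b* had the widest gap, lower in the high sums of both libraries (adjusted p = 0.655, edgeR). *Kdm5c* was at 37.7 and 135 CPM against 85.1 and 66.4 CPM, *Kdm6a* at 81.3 and 27.5 CPM against 0.946 and 65.8 CPM and *Kdm5d* at 21.01 and 3.03 CPM against 0 and 24.7 CPM, and these sex-linked members changed order between the libraries. *Tet1* was at 10.9 and 17.2 CPM against 25.2 and 30.6 CPM, *Tet2* at 49.1 and 13.9 CPM against 37.5 and 15.1 CPM and *Tet3* at 40.8 and 31.3 CPM against 70.6 and 25.1 CPM. In all, 24 of 55 members had the same direction in both libraries, beside 55.1% of all genes.

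Other properties moved with *Runx1*. High cells were deeper, with medians of 260240 and 271734 counts against 95376 and 213444 in low cells. The 8 endothelial genes summed to 1662 and 3090.0 CPM in high and 3704 and 5730 CPM in low cells, with *Cdh5*, *Tek*, *Kdr* and *Cldn5* past the test as lower. The 7 hematopoietic genes other than *Runx1* summed to 1283 and 835 CPM in high and 708 and 106 CPM in low cells, with *Adgrg1*, *Bcl11a* and *Neurl3* past the test as higher. The 5 mesenchymal genes summed to 48.4 and 23.3 CPM against 2250 and 786 CPM, with *Col1a1*, *Col1a2*, *Col3a1* and *Lum* past the test as lower. All 3 cells with mesenchymal genes, which were picked by these same genes, were *Runx1*-low. The 20 G2M phase genes summed to 4372 and 5023 CPM in high and 2795 and 3946 CPM in low cells, with 6 at an unadjusted p below 0.05 and 0 past the test, and the 6 macrophage genes to 175 and 230.0 CPM against 117 and 45.9 CPM. The part of these differences in the values of the members was not tested. Without the 3 cells, 0 of 54 members passed.

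**Figure D3:**
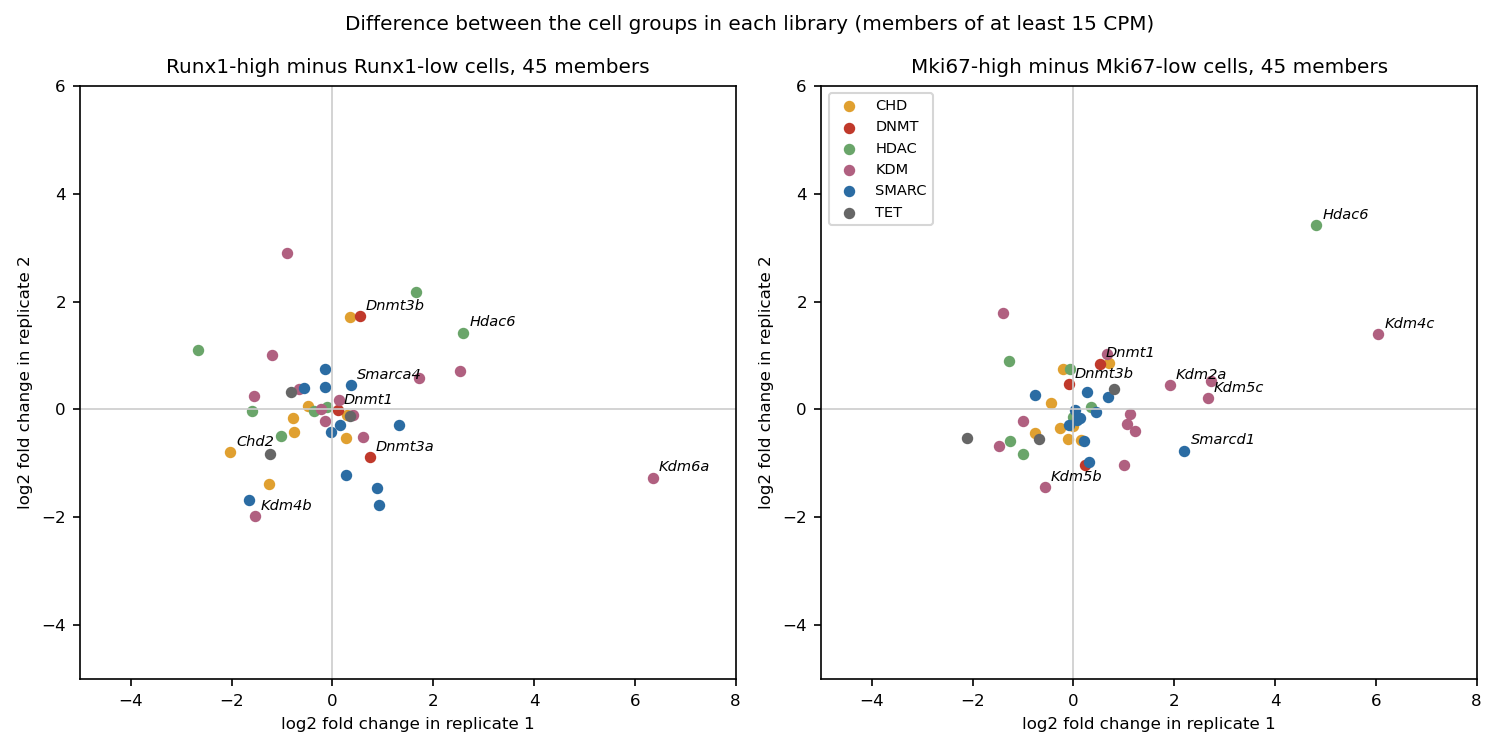
Log2 fold change in replicate 1 (x axis) against replicate 2 (y axis) for the 45 members with a mean of at least 15 CPM over the 4 sums, between *Runx1*-high and *Runx1*-low cells (left) and *Mki67*-high and *Mki67*-low cells (right), coloured by family. In the same direction in both libraries were 20 members on the left and 25 on the right.

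The same division by *Mki67* (323 and 181 CPM, 21 and 22 high cells) asked whether the members follow proliferation. Again 0 members passed, of 54 tested, beside 0.0376% of all genes (4 of 10650, edgeR), and by DESeq2 0 members and 24 genes. *Top2a* and *Cenpe*, genes of dividing cells, were among the 4. At an unadjusted p below 0.05 were 5 members, beside 4.35% of all genes. The median log2 fold change was -0.00 over the members and 0.03 over all genes, and 30 of 54 members had the same direction in both libraries, beside 49.8% of all genes.

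*Dnmt1*, whose protein travels with the replication fork, was at 347 and 332 CPM against 238 and 179 CPM in *Mki67*-high against *Mki67*-low cells. Its cell medians were 306 and 257 CPM in high and 37.4 and 161 CPM in low cells, higher in the high cells of both libraries (log2 fold change 0.69 ± 0.30, edgeR adjusted p = 1.00, DESeq2 adjusted p = 0.657). *Hdac6* was at 39.1 and 33.2 CPM against 1.33 and 2.998 CPM, but its counts came from 5 and 8 high cells and 3 and 4 low cells, and in each library 3 cells held 96.6% and 79.3% of its counts. *Kdm2a* was at 163 and 120.0 CPM against 42.4 and 85.1 CPM, *Kdm5c* at 84.5 and 114 CPM against 13.1 and 96.3 CPM and *Kdm5b* at 96.996 and 51.1 CPM against 141 and 136 CPM. These 5, named after their values were seen, had log2 fold changes from -1.004 (*Kdm5b*) to 4.10 (*Hdac6*), but those of *Kdm5c* and *Kdm2a* fell from 1.41 to 0.039 and from 1.18 to 0.51 in cells thinned to the same depth, and *Kdm5c* to 0.24 between the highest and lowest terciles. In the libraries alone, *Kdm5c* was at 2.66 and 0.21, *Kdm2a* at 1.91 and 0.46 and *Kdm5b* at -0.57 and -1.44 on the log2 scale. Their lowest adjusted p over all settings was 0.17, by DESeq2 for *Hdac6*.

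The de novo methyltransferases did not share the direction of *Dnmt1* in both libraries. *Dnmt3a* was at 322 and 129.6 CPM against 271 and 258 CPM and *Dnmt3b* at 194 and 173 CPM against 204 and 122 CPM (log2 fold change 0.19 ± 0.37). *Tet1* was at 6.75 and 19.5 CPM against 28.8 and 27.4 CPM, *Tet2* at 55.2 and 15.97 CPM against 30.96 and 11.99 CPM and *Tet3* at 41.3 and 24.7 CPM against 65.4 and 35.2 CPM. *Smarca4* was at 516 and 410.0 CPM against 371 and 415 CPM, *Smarca2* at 136 and 84.9 CPM against 123 and 92.5 CPM and *Smarca5* at 297 and 86.1 CPM against 279 and 95.7 CPM, within 1.5 times in each library. *Smarcc1* was at 356 and 248 CPM against 345 and 242 CPM and *Smarcd1* at 101 and 86.7 CPM against 21.6 and 143 CPM. *Chd4* was at 485 and 353 CPM against 480.1 and 426 CPM, *Chd1* at 149 and 132 CPM against 89.9 and 70.4 CPM and *Chd7* at 115 and 109.7 CPM against 122 and 156 CPM, of which *Chd1* lay higher in the high cells of both libraries without passing the test. *Hdac1* was at 281 and 309 CPM against 278 and 329.8 CPM and *Hdac2* at 82.7 and 76.98 CPM against 85.7 and 44.6 CPM. *Hdac3* was at 54.6 and 49.2 CPM against 41.9 and 46.6 CPM, *Hdac7* at 30.3 and 130.1 CPM against 70.99 and 189.9 CPM and *Hdac10* at 16.01 and 27.1 CPM against 38.4 and 14.2 CPM, with *Hdac7* lower in the high cells of both libraries.

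Among the demethylases, *Kdm1a* was at 98.2 and 83.2 CPM against 44.04 and 86.1 CPM, *Kdm3b* at 35.3 and 40.2 CPM against 91.8 and 11.4 CPM and *Kdm4b* at 22.4 and 27.7 CPM against 61.7 and 42.97 CPM. *Kdm5a* was at 71.2 and 146 CPM against 140.1 and 164 CPM and *Kdm6b* at 58.6 and 67.6 CPM against 27.8 and 79.5 CPM. *Kdm6a* was at 69.6 and 38.6 CPM against 29.4 and 49.6 CPM and *Kdm5d* at 22.8 and 9.35 CPM against 0.801 and 15.4 CPM. Of these 7, 5 lay on different sides in the libraries, and *Kdm4b* and *Kdm5a* were lower in both. The *Mki67*-high cells were deeper too, with medians of 245523 and 264754 counts against 90600 and 207920. The 20 G2M phase genes summed to 5212 and 6154 CPM in high and 1875 and 2184 CPM in low cells, and the 20 S phase genes to 3409 and 3253 CPM against 3083 and 2366 CPM.

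**Figure D4:**
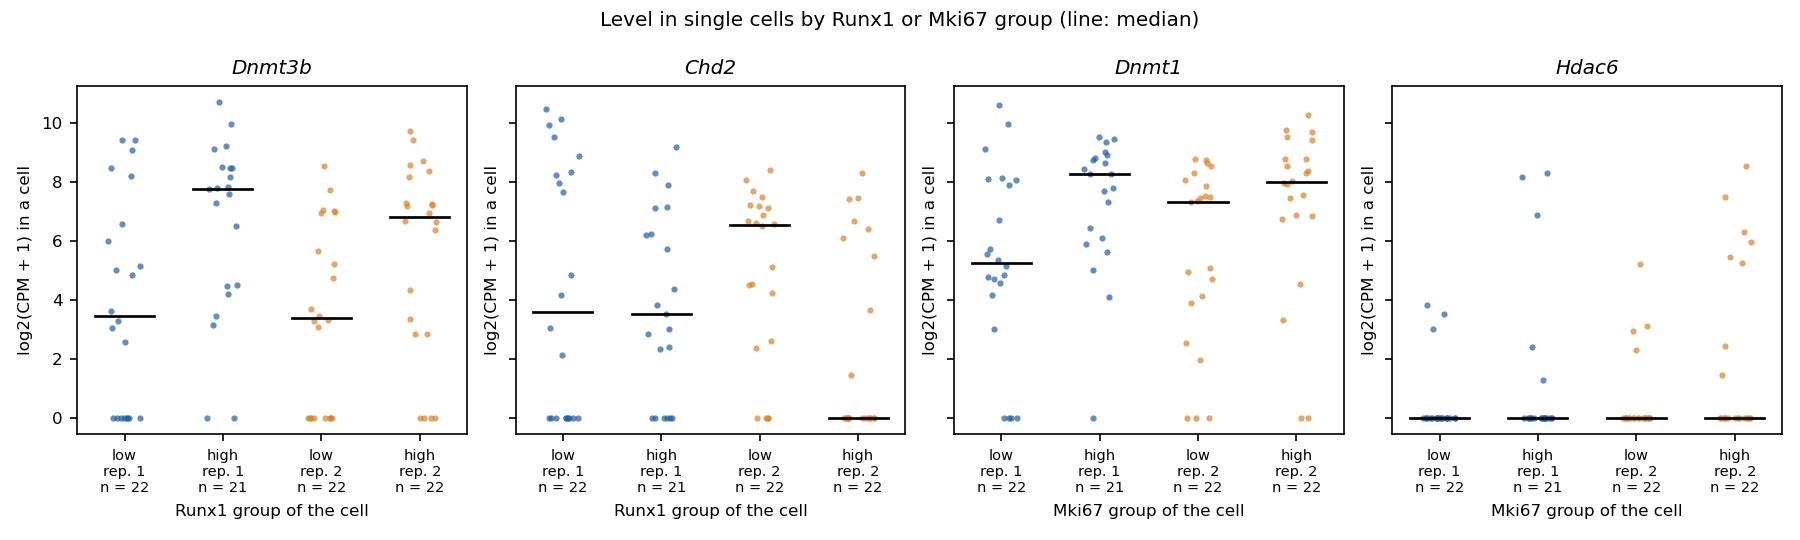
Level in single cells as log2(CPM + 1) for *Dnmt3b* and *Chd2* by *Runx1* group and for *Dnmt1* and *Hdac6* by *Mki67* group, each point a cell and each line a median. The medians of *Dnmt3b* and *Dnmt1* are higher in the high group of both libraries, and cells at 0 occur in each group.

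Across single cells, correlations of the members with *Runx1* and *Mki67* were weak, and are given as a description. Over members with counts in at least 20% of cells (41 in replicate 1, 48 in replicate 2), the median Spearman's rho with *Runx1* was 0.168 and 0.0957, beside 0.127 and 0.102 over all such genes. With *Mki67* it was 0.113 and 0.0060, beside 0.118 and 0.0102. All these values share the depth of the cells. *Dnmt3b* had a rho with *Runx1* of 0.31 and 0.45 over 43 and 44 cells, and a rho with depth of 0.31 and 0.51. In thinned cells its rho with *Runx1* was 0.14 and 0.51. *Chd2* had a rho with *Runx1* of 0.035 and -0.35, and of -0.074 and -0.18 in thinned cells. *Dnmt1* had a rho with *Mki67* of 0.32 and 0.23 (0.28 and 0.22 in thinned cells), and with depth of 0.58 and 0.31. In sparse counts such as these, no relation is read from them.

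Both libraries held cells with *Xist* and cells with the Y-linked genes *Ddx3y*, *Eif2s3y* and *Uty*, which allowed the X- and Y-linked members to be looked at by sex of the cell. With at least 10 counts of these genes and at least 90% of them on one side, 9 and 15 cells were classed XX and 14 and 9 XY. Another 20 and 17 cells had too few counts and 0 and 3 cells had both. *Kdm5d* (chrY:897788-956786, plus strand) had 32 counts in 2 of 14 and 91 counts in 4 of 9 XY cells. Over all cells of the libraries *Kdm5d* had 121 and 149 counts, and those outside both classes included its highest cell (539 CPM, replicate 1). In XX cells, which lack the gene, *Kdm5d* had 2 counts in 2 of 9 and 3 counts in 2 of 15 cells, and in thinned cells 0 of 9 and 0 of 15. The shares of cells with a count of the rarest members, *Smarca1*, *Chd5*, *Hdac11*, *Hdac9*, *Kdm4d* and *Smarca5-ps* among them, were thus at or below the share that stray counts gave *Kdm5d* in XX cells, whose median depths were 199814 and 251485 counts, although some of these members had many counts per cell where they were found. The X-linked *Kdm5c* and *Kdm6a*, known to escape X inactivation, were at 61.5 and 94.9 CPM against 72.2 and 91.6 CPM and at 92.3 and 66.2 CPM against 52.7 and 36.6 CPM in XX against XY cells. *Kdm6a* was higher in XX cells of both libraries without passing the test (log2 fold change 0.84 ± 0.92, edgeR adjusted p = 1.00), and for *Kdm5c* the libraries went in opposite directions (-0.08 ± 0.79).

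No member passed the test of XX against XY cells either, 0 of 52, beside 0.0304% of all genes (3 of 9855 by edgeR), and 0 members and 11 genes by DESeq2. At an unadjusted p below 0.05 were 4 members, beside 3.42% of all genes, and all 4 were named after their values were seen. *Smarcd1* was at 140.1 and 152 CPM against 11.2 and 37.4 CPM and higher in XX cells of both libraries (log2 fold change 2.84 ± 0.83, edgeR adjusted p = 0.414, lowest over all settings 0.118 by DESeq2). It held 82.2% and 66.3% of the BAF60 counts in XX and 19.4% and 37.7% in XY cells. Single cells varied widely, from 0 to 576 CPM in the XX cells of replicate 1. Over all cells, 3 cells of each library held 58.0% and 40.6% of the *Smarcd1* counts. *Chd3* was at 0 and 49.98 CPM against 52.2 and 182 CPM, with 0 counts in the 9 XX cells of replicate 1 (edgeR adjusted p = 0.365, lowest over all settings 0.0841 by DESeq2). Only 11 of 43 and 29 of 44 cells, classed or not, had counts of *Chd3*, and 3 cells of each library held 50.2% and 46.5% of them. *Smarcc1* was at 153 and 222 CPM against 409 and 362 CPM (log2 fold change -1.05 ± 0.43), but its fold change was -0.24 after thinning and 0.22 with stricter classes, and -1.41 and -0.69 in the libraries alone. *Hdac6*, on the X chromosome, was at 0.831 and 4.62 CPM against 52.97 and 49.7 CPM. Here too its counts came from few cells: over all cells, classed or not, 3 cells of each library held 96.6% and 79.3% of them. As the embryo of each cell is not given, sex and embryo cannot be told apart. Of the 9 and 15 XX cells 6 and 8 were *Runx1*-high, as were 8 of 14 and 2 of 9 XY cells, and the 5 mesenchymal genes summed to 1479 CPM in XY cells of replicate 2 and to at most 44.7 CPM in the other classes.

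Values of the remaining members of the fixed selection were as follows in XX against XY cells. *Dnmt1* was at 399 and 273 CPM against 243 and 277 CPM, *Dnmt3a* at 232 and 169.8 CPM against 366 and 184 CPM and *Dnmt3b* at 154 and 109.8 CPM against 189 and 229 CPM. *Tet1* was at 23.7 and 38.7 CPM against 0.26 and 2.62 CPM, *Tet2* at 2.49 and 17.1 CPM against 48.3 and 7.48 CPM and *Tet3* at 6.23 and 21.7 CPM against 80.5 and 21.3 CPM. Of these, *Dnmt3a*, *Dnmt3b* and *Tet1* kept their direction in both libraries. The counts of *Tet1* came from 6 of 43 and 16 of 44 cells, classed or not, and 3 cells of each library held 90.9% and 70.0% of them. *Smarca4* was at 536 and 495 CPM against 406 and 344 CPM, *Smarca2* at 113 and 87.9 CPM against 146 and 128 CPM and *Smarca5* at 212 and 66.4 CPM against 327 and 103 CPM. *Chd4* was at 376 and 385 CPM against 467 and 363 CPM, *Chd1* at 161 and 109 CPM against 70.1 and 109.9 CPM and *Chd7* at 57.8 and 121 CPM against 199 and 112 CPM. The motors just named were within 2 times between the classes of a library except *Chd1* and *Chd7* in replicate 1. *Chd3*, given above, was not within 2 times in either library. *Hdac1* was at 305 and 315 CPM against 276 and 288 CPM, *Hdac2* at 73.98 and 52.4 CPM against 90.1 and 87.5 CPM and *Hdac3* at 28.3 and 35.9 CPM against 61.8 and 54.97 CPM. *Hdac1* lay higher and *Hdac2* and *Hdac3* lower in XX cells of both libraries, without passing the test. *Hdac7* was at 16.6 and 189.9 CPM against 60.8 and 186 CPM and *Hdac10* at 33.7 and 26.1 CPM against 10.4 and 11.2 CPM. *Kdm1a* was at 34.1 and 91.5 CPM against 95.8 and 86.4 CPM, *Kdm2a* at 120.1 and 112 CPM against 99.97 and 141 CPM and *Kdm3b* at 66.5 and 37.3 CPM against 60.8 and 43.8 CPM. *Kdm4b* was lower and *Kdm5a* higher in XX cells of both libraries, at 19.9 and 34.3 CPM against 43.6 and 60.6 CPM and at 95.2 and 149 CPM against 59.7 and 80.03 CPM. *Kdm6b* was at 7.48 and 35.7 CPM against 39.2 and 128 CPM.

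**Figure D5:**
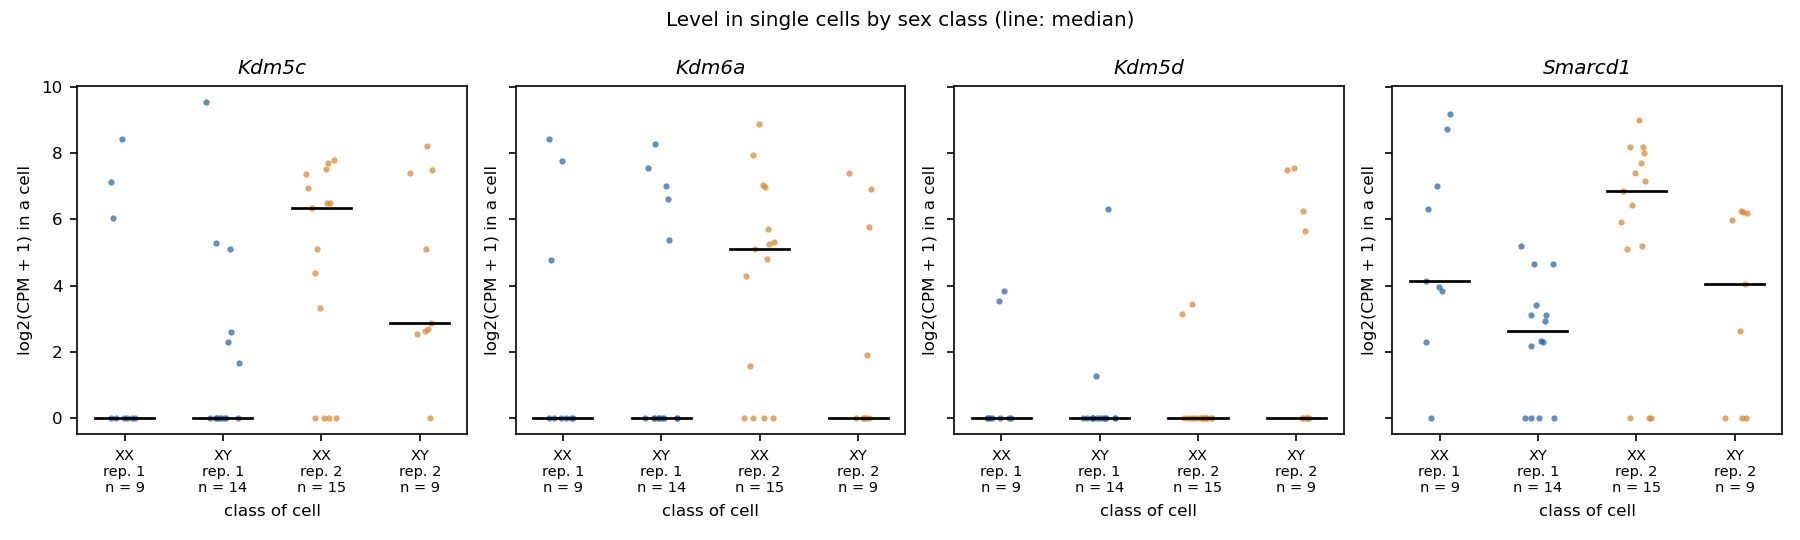
Level in single cells as log2(CPM + 1) of the sex-linked members *Kdm5c*, *Kdm6a* and *Kdm5d* and of *Smarcd1* in cells classed XX or XY, each point a cell and each line a median. The points of *Kdm5d* above 5 are all XY cells, and the medians of *Smarcd1* are higher in XX cells of both libraries.

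The partners of the members in their complexes were taken from 6 lists. In each of the 3 comparisons, 0 genes of any list passed the edgeR test. Among the SWI/SNF partners (18 listed, 13 tested), the median log2 fold change between *Runx1*-high and *Runx1*-low cells was 0.33, and 10 were above 0. *Arid1a*, a DNA-binding subunit named as an example, was at 264 and 210.1 CPM in high and 233 and 152 CPM in low cells. Unlike the CPM of the members, those of partner genes carry the scaling of the edgeR test (TMM normalization over the genes tested). The median was 0.35 over the NuRD partners (7 of 10 tested above 0) and 0.13 over ISWI, INO80 and other remodellers (11 of 16). Over HDAC corepressors it was 0.02 (8 of 14) and over DNA methylation partners 0.17 (6 of 11). Histone methyltransferases had 0.20 (13 of 21), beside 0.07 over all genes. The libraries alone gave opposite directions for the HDAC corepressors (0.36 and -0.26) and the DNA methylation partners (-0.50 and 0.28), and 0.21 and 0.09 for the NuRD partners, 0.53 and 0.27 for the SWI/SNF partners, 0.15 and 0.26 for the other remodellers and 0.49 and 0.25 for the histone methyltransferases. *Uhrf1*, which brings *Dnmt1* to replicating DNA and is another example, was at 207 and 165 CPM in high and 152 and 126 CPM in low cells. Both examples lay higher in high cells, while each list also held genes below 0. At an unadjusted p below 0.05 by *Mki67* were 6 of 86 partners tested (6.98%, beside 4.35% of all genes), *Actl6a*, *Hells*, *Hmg20b*, *Mat2a*, *Suz12* and *Ehmt1*. By sex of the cell they were 3 of 83 (3.61%, beside 3.42% of all genes), *Baz1b*, *Hmg20b* and *Kmt2b*.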

How the data were processed

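The deposited tables hold counts per gene and cell, made by the authors from modified STRT-seq reads. The study's methods describe such counts as distinct UMIs. Whether the deposited counts were deduplicated was not tested. Per the labels and the study's methods, reads were aligned to mm10 with HISAT2 2.1.0 and counted with HTSeq. The strand setting is not given in the sources used here. Members and lists were chosen with earlier results of these data known.

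Cells were summed per library, since both libraries are of 1 condition and cells are not replicates. The labels do not say whether the libraries came from separate embryos. With the library in the model, p-values weigh a difference between groups only against how far it varied between these libraries, with dispersion moderated over genes. That variation may be technical. Counts of all cells were used, with no filter on cells and no doublet caller. The cells of each library were divided at the median CPM of *Runx1* or of *Mki67*, or by *Xist* against *Ddx3y*, *Eif2s3y* and *Uty* (at least 10 counts, at least 90% on one side), and the 4 sums were compared by the quasi-likelihood test of edgeR 4.0.16 (R 4.3.3) with the library as a block, TMM normalization, filterByExpr and Benjamini-Hochberg adjustment over all genes but the dividing ones, at a threshold of 0.05. The block pairs the groups of cells of 1 library: deviations of same-library sums correlated at 0.197 (*Runx1*), 0.178 (*Mki67*) and 0.157 (sex). The rule for named genes took every member that passed a test, the most abundant member of each paralog group and a fixed selection of members. DESeq2 1.42.0 was an alternative, as were other size factors, no filter, cells thinned to 20000 counts (1 cell left out), leaving out cells with mesenchymal genes, other divisions of the cells and leaving out each library. Exact binomial intervals (95%) and the limit a count of 0 allows (3 counts) cover counting error only. Tested on simulated data, the fit recovered hardly any changes of the size of that of *Dnmt3b* by *Runx1*, so that a member that missed the threshold is not shown to be unchanged. One result on a partner gene is not reported here. Gene positions and exon lengths are those of GENCODE M21, and the promoter windows of RefSeq.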

Additional observations from a re-analysis of the deposited data

How the results depend on the processing

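No member passed the test in any comparison under any alternative, while the number of all genes that passed ranged from 1 to 306 by *Runx1*, 0 to 25 by *Mki67* and 0 to 11 by sex of the cell. Without the replicate block, 1, 0 and 0 genes passed, against 166, 4 and 3 with it, and *Dnmt3a* by *Runx1* turned to 0.075. By DESeq2, 306, 24 and 11 genes passed. By *Mki67*, 18 passed with median-of-ratios size factors, 25 without the filter on low counts, 25 between the highest and lowest terciles, 1 without the cells with mesenchymal genes and 0 with cells split into 8 sums and the *Runx1* group in the model (9009 genes tested). By *Runx1*, 53 passed after thinning and 55 with 8 sums and the *Mki67* group in the model (9009 genes tested). Leaving out a library leaves 1 sum per group, and gives a fold change without a test.

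Among recomputed fold changes of single members, 15 changed direction and 156 did not, and 4 recomputed medians of the members also changed direction. The 350 values recomputed in all include counts of members, shares and levels, which cannot change direction. By *Runx1*, *Dnmt1* turned to -0.034 without the cells with mesenchymal genes, -0.072 with 8 sums and -0.0074 without replicate 1 (0.10 without replicate 2). *Dnmt3a* turned to 0.0057 between terciles, 0.11 with cells divided on thinned counts, 0.023 with 8 sums and 0.74 without replicate 2 (-0.88 without replicate 1). By *Mki67*, *Dnmt3b* turned to -0.72 between terciles, -0.058 with cells divided on thinned counts and -0.095 without replicate 2 (0.47 without replicate 1). By sex, *Kdm5c* turned to 0.76 after thinning, 2.80 with stricter classes and 0.063 without replicate 1 (-0.22 without replicate 2), and *Smarcc1* to 0.22 with stricter classes. The median log2 fold change of the members by *Runx1* moved to -0.21 without the cells with mesenchymal genes and to -0.0038 between terciles, and ran from -0.12 to -0.035 when a library was left out. By sex it moved from -0.21 to 0.46 with stricter classes and 0.053 without replicate 1, and by *Mki67* from -0.0025 to 0.012 without the block and 0.13 without replicate 2. The median correlation with *Runx1* moved to 0.0807 in thinned cells, and the median level ran from 40.5 to 48.3 CPM over the libraries. The cause was not tested.

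Shares within paralog groups moved with the scale. Per kilobase of exon, the share was 89.8% for *Smarca4*, 68.2% for *Smarcc1*, 58.1% for *Smarcd1*, 66.8% for *Chd1*, 39.8% for *Chd7*, 90.4% for *Hdac3*, 64.6% for *Hdac10*, 72.0% for *Kdm2a*, 48.0% for *Kdm3b*, 62.2% for *Kdm4b*, 32.7% for *Kdm5a* and 29.2% for *Dnmt3a*. In thinned cells it was 69.7% for *Smarcc1*, 63.8% for *Smarcd1*, 33.5% for *Chd7*, 92.3% for *Hdac3*, 55.1% for *Hdac10*, 80.1% for *Kdm2a*, 66.9% for *Kdm3b*, 74.6% for *Kdm4b*, 49.8% for *Kdm5a* and 40.3% for *Tet3*. As a mean of the shares within cells it was 71.0% for *Smarcc1*, 48.3% for *Smarcd1*, 37.0% for *Chd7*, 72.0% for *Hdac1*, 68.3% for *Kdm2a*, 49.4% for *Kdm3b*, 47.3% for *Kdm4b*, 45.0% for *Kdm5a* and 51.8% for *Tet3*. Without the cells with mesenchymal genes, *Smarcc1* held 76.6%.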
